A study of Mus musculus with 8 samples.

Results

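Genes of protein folding in the endoplasmic reticulum (ER), and of the unfolded protein response that controls them, were compared between brains of fasted and fed mice. The 40 genes were taken from a list of gene names, chosen with earlier results of these data known. All non-control probes carrying one of those names were used. These were 55 probes of 39429 on the array, which names 30210 genes in all. Of the 40 genes, 39 had a probe that passed the filter on dim signals, and these are compared below among 19995 genes tested. The exception was Fkbp11, a prolyl isomerase, which was not well above background on any of the 8 arrays. The mice had been fasted for 17 h (4 arrays) or fed (4 arrays), and total RNA of brain was hybridised in 1 colour. Strain, genotype, age, sex, brain region and the number of animals behind each array are not given in the sources used here, so p-values measure only the spread between these samples. Nothing in the labels names an allele or an agent in either group.

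Secreted and membrane proteins enter the ER through the Sec61 channel and fold there with the help of chaperones, disulfide isomerases and prolyl isomerases, and those that fail are carried back to the cytosol and degraded. When unfolded proteins accumulate, the sensors IRE1 (encoded by Ern1), PERK (Eif2ak3) and ATF6 respond. IRE1 splices the mRNA of the transcription factor XBP1, and ATF6 is cut to release a transcription factor. Both factors act through short promoter motifs called ER stress elements (ERSE), with a CCAAT box bound by NF-Y and a CCACG box bound by ATF6 or XBP1. PERK acts through translation and the transcription factor ATF4. In brain, neurons and glia that make many receptors, channels, myelin proteins and secreted proteins rely on this machinery.

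The promoters of these genes are described first. The promoter table holds 250 bases before to 50 bases after each gene start, credited to RefSeq (GRCm38.p6), and 33 of the 40 genes matched it. Manf, Sil1, Hyou1, Sec61a1, Derl1, Atf6 and Erp29 are named only. The exact ERSE, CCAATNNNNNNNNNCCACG on either strand, was found in 10 of the 33 genes: Hspa5, Hsp90b1, Dnajc3, Calr, Canx, Pdia6, Ero1lb, Creld2, Syvn1 and Derl3. That is 30.3% of them, against 0.137% of all 27025 genes in the table and 0.119% of its 32851 windows. ERSE is a motif already known for this response, so these shares describe the list and are not a test. The fragments below are from 5 genes that were lower in fasted brain, and are shown because the same element stands in each. Capitals mark the CCAAT and CCACG boxes. A match on the opposite strand reads CGTGG first and ATTGG second. All are written in the direction of the gene.

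Hspa5 (chr2:34772005-34772063, plus strand): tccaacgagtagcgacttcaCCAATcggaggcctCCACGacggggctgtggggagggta
Calr (chr8:84847055-84847113, minus strand): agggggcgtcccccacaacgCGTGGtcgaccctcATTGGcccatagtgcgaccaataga
Pdia6 (chr12:17266471-17266529, plus strand): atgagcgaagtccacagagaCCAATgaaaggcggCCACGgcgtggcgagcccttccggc
Creld2 (chr15:88819500-88819558, plus strand): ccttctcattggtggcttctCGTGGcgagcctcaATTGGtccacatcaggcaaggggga
Hsp90b1, upstream match (chr10:86705618-86705676, minus strand): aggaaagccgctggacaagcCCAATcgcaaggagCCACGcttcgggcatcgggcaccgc
Hsp90b1, downstream match (chr10:86705513-86705571, minus strand): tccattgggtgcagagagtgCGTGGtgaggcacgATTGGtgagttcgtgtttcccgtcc

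The next fragments come from 3 genes that hold the same element but did not pass the test between fasted and fed brain. They are shown so that the boxes and the spacer can be read beside those above. Ero1lb and Derl3 also hold the element without passing and are not shown. Their log2 differences, fasted minus fed, were -0.11 and -0.16, farther from 0 than those of the 3 genes shown.

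Canx (chr11:50325780-50325838, minus strand): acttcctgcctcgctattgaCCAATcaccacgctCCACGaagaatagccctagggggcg
Dnajc3 (chr14:118937807-118937865, plus strand): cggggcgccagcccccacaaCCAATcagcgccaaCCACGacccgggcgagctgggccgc
Syvn1 (chr19:6046512-6046570, plus strand): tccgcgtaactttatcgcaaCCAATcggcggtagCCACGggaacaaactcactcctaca

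In fasted brain 12 of the 39 measured genes were lower and 0 were higher, while 27 did not pass. Lower and higher mean that limma, fitted to all 8 arrays and 26066 kept probes, gave a Benjamini-Hochberg adjusted p under 0.05. By the same rule 8.70% of all 19995 genes tested were lower and 8.49% were higher. Since the list was chosen with earlier results of these data known, these shares are a reference and not an independent test. The 4 fasted values lay entirely below the 4 fed values for 18 of the 39 genes and entirely above them for 0. Over all 19995 genes tested, 2508 (12.5%) had such a gap downwards and 2512 upwards. These counts take the brightest probe of each gene, and dimmer probes of Dnajb9 and Dnajc10 did have a gap upwards. The log2 difference, fasted minus fed, was negative for 29 of the 39 genes and for 10873 of all 19995 genes tested. The medians were -0.10 and -0.01. Over the 39 genes the difference ran from -0.76 for Sdf2l1 to 0.13 for Hyou1. Signals are log2 values relative to the 75th percentile of the array, so a value of 0 is that percentile and levels are not comparable between probes.

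**Figure D1:**
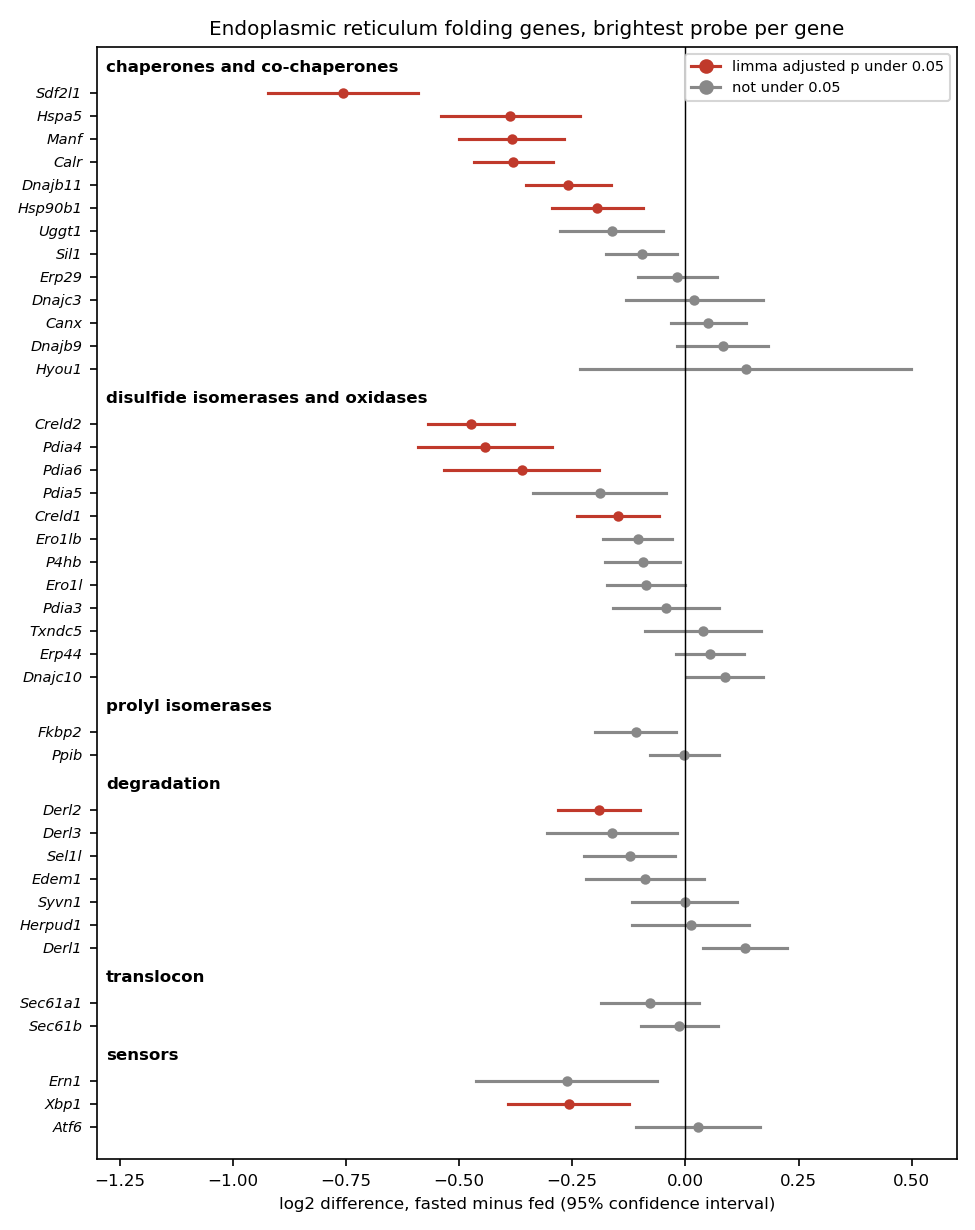
Log2 difference between fasted and fed brain (x axis, points, with 95% confidence intervals as bars) for each of the 39 measured genes, ordered by role down the page. The 12 genes with an adjusted p under 0.05 are in red and all lie left of 0, and Hyou1 has the widest interval.

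By role, 6 of 13 chaperones and co-chaperones were lower (median log2 difference -0.16), and 4 of 12 disulfide isomerases and oxidases (-0.10). So were 1 of 7 genes of ER-associated degradation (-0.09) and 1 of 3 sensors (-0.26). Neither of the 2 measured prolyl isomerases (-0.06) nor of the 2 subunits of the Sec61 channel (-0.05) passed. The difference between roles was not tested.

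Among the chaperones, Sdf2l1, a partner of the ER Hsp70 machinery, differed most. Its probe (chr16:17130426-17130485 in mm9) gave -1.81, -1.69, -1.54 and -1.70 on fasted arrays 1 to 4, against -0.97, -1.06, -0.81 and -0.88 on fed arrays 1 to 4. Every fasted array was below every fed array, by a gap wider than the range within either group. The log2 difference was -0.76 ± 0.07 (SE), a fold of 1.69 downwards (interval at 95% confidence from 1.51 to 1.89, adjusted p = 0.00133 by limma). Hspa5 encodes BiP, the ER Hsp70 that also holds the sensors inactive. Its probe (chr2:34631913-34631972) gave 3.562, 3.595, 3.755 and 3.611 on the fasted arrays, against 4.004, 3.865, 4.123 and 4.077 on the fed arrays. The groups did not overlap, and fasted array 3 was nearest to the fed ones. Fasted brain was 1.31-fold lower (1.18 to 1.45; adjusted p = 0.00849). Manf encodes a small secreted protein that binds BiP and is known as a neurotrophic factor. Its probe (chr9:106791278-106791337) gave 0.30, 0.25, 0.39 and 0.22 in fasted brain, against 0.68, 0.59, 0.74 and 0.69 in fed brain. These groups were again separate, with a difference of -0.38 ± 0.05 (SE; adjusted p = 0.00344).

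Calr encodes calreticulin, which binds calcium and the sugar chains of new glycoproteins. Its probe (chr8:87366192-87366251) gave 2.87, 2.96, 2.90 and 2.91 on the fasted arrays, against 3.31, 3.33, 3.31 and 3.22 on the fed arrays, both groups lying within narrow ranges. The fold was 1.30 lower in fasted brain (1.23 to 1.38; adjusted p = 0.00152). Dnajb11, a J-domain co-chaperone of BiP (chr16:22872067-22872126), gave 1.12, 1.24, 1.23 and 1.26 in fasted brain, against 1.46, 1.42, 1.48 and 1.52 in fed brain. The difference was -0.26 ± 0.04 (SE; adjusted p = 0.00635), and fasted array 1 was the lowest of the 8. Hsp90b1 encodes GRP94, the Hsp90 of the ER. Its probe (chr10:86153770-86153829) gave 3.70, 3.70, 3.76 and 3.75 on the fasted arrays, against 3.91, 3.87, 4.03 and 3.87 on the fed arrays. The groups were separate, but the step was small, -0.20 ± 0.04 (SE; adjusted p = 0.0212). Without fasted array 1 its adjusted p was 0.0593, and without fasted array 2 it was 0.0584.

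The remaining 7 chaperones did not pass. Uggt1, the sensor of misfolded glycoproteins, came nearest with a log2 difference of -0.16 (adjusted p = 0.0574), and its fasted and fed values overlapped. It passed with the replicate number as a block (adjusted p = 0.0315) and with slide as a block (adjusted p = 0.0304). Sil1, the exchange factor of BiP, gave -0.10 with separate groups (adjusted p = 0.0914). Canx, the membrane-bound relative of calreticulin, gave 0.05 ± 0.04 (SE; 95% confidence interval -0.03 to 0.13; adjusted p = 0.371), an interval that does not reach the difference of Calr. Dnajc3, a J-domain inhibitor of PERK, gave 0.02 (adjusted p = 0.872), and Erp29 gave -0.02 (adjusted p = 0.781). Dnajb9, another J-domain partner of BiP, gave 0.08 (adjusted p = 0.235). Hyou1, an Hsp110-like exchange factor, was dim: it was well above background on 3 fasted arrays and 1 fed array, and its difference of 0.13 (95% confidence interval -0.23 to 0.50) is not resolved at this signal.

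**Figure D2:**
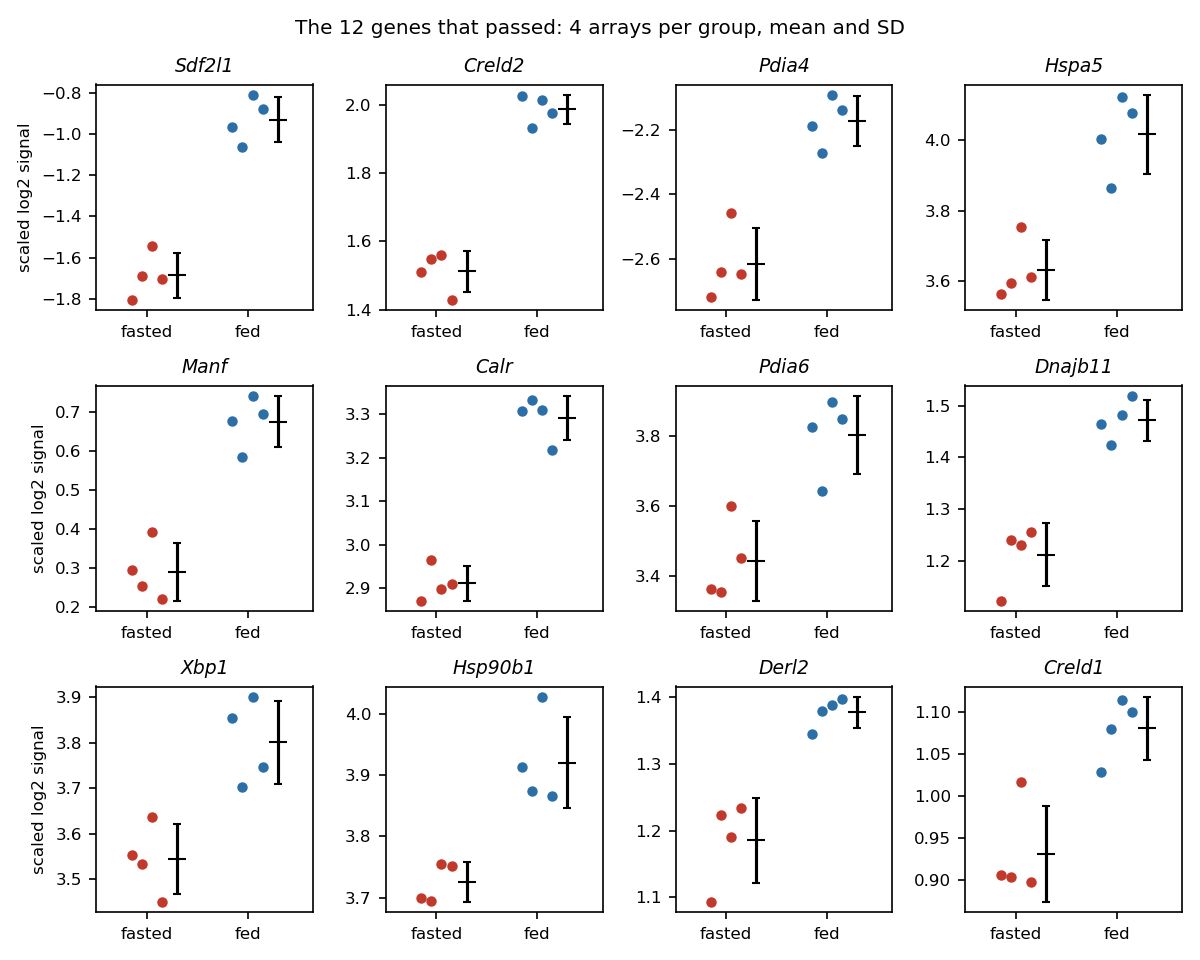
Scaled log2 signal (y axis, relative to the 75th percentile of the array, with a separate range in each panel) of the 12 genes that were lower, on 4 fasted arrays (left, red) and 4 fed arrays (right, blue). Points are arrays 1 to 4 from left to right and bars are the mean and SD, and in each panel every fasted point lies below every fed point.

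Disulfide bonds are made by the protein disulfide isomerase family, which Ero1 oxidases recharge. Creld2, a secreted and ER-resident protein with isomerase activity, is the only one of the 55 probes printed in 10 spots (chr15:88656997-88657056). It gave 1.51, 1.55, 1.56 and 1.43 in fasted brain, against 2.03, 1.93, 2.01 and 1.98 in fed brain. Both groups were tight and far apart, and fasted brain was 1.39-fold lower (1.30 to 1.48; limma adjusted p = 0.00104). Pdia4 encodes ERp72. Its probe (chr6:47746516-47746575) gave -2.72, -2.64, -2.46 and -2.65 on the fasted arrays, against -2.19, -2.27, -2.09 and -2.14 on the fed arrays, or 1.36-fold lower (1.23 to 1.51; adjusted p = 0.00481). Pdia6 encodes P5, an isomerase that binds BiP and damps the signal of IRE1. The Pdia6 probe (chr12:17291070-17291129) gave 3.36, 3.35, 3.60 and 3.45 on the fasted arrays, against 3.83, 3.64, 3.90 and 3.85 on the fed arrays. Here fasted array 3 came close to fed array 2, and the difference was -0.36 ± 0.07 (SE; adjusted p = 0.0156).

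Creld1, the membrane-bound paralogue of Creld2, had the smallest step of the 12. Its probe (chr6:113442957-113443016) gave 0.906, 0.903, 1.016 and 0.897 in fasted brain, against 1.028, 1.079, 1.113 and 1.100 in fed brain. Fasted array 3 stood apart from its group and was next to fed array 1. The difference was -0.15 ± 0.04 (SE; adjusted p = 0.0368), and the adjusted p was above 0.05 on leaving out any of fasted arrays 1, 2 and 4 or fed arrays 2, 3 and 4 (0.0808 to 0.0914).

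Of the 8 other genes of disulfide formation, 4 had fully separate groups without passing. These were Pdia5 (-0.19, adjusted p = 0.0811), both oxidases Ero1lb (-0.11, adjusted p = 0.0664) and Ero1l (-0.09, adjusted p = 0.150), and P4hb, the founding member of the family (-0.09, adjusted p = 0.111). With slide as a block Pdia5 passed (adjusted p = 0.0459). The other four overlapped. Pdia3, the isomerase that works with calreticulin and calnexin on glycoproteins, gave -0.04 ± 0.05 (SE; adjusted p = 0.600). Txndc5 gave 0.04 (adjusted p = 0.677), Erp44, which retains Ero1 in the early secretory pathway, gave 0.05 (adjusted p = 0.293), and Dnajc10, the reductase ERdj5, gave 0.09 (adjusted p = 0.142). Of the prolyl isomerases, Fkbp2 gave -0.11 (adjusted p = 0.0899) and Ppib, cyclophilin B, gave -0.00 ± 0.03 (SE; adjusted p = 0.972).

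In ER-associated degradation, Derl2 was lower in fasted brain. It encodes a derlin, a membrane protein of the channel that takes misfolded proteins out of the ER. Its brightest probe (chr11:70823456-70823515) gave 1.09, 1.22, 1.19 and 1.23 on the fasted arrays, against 1.34, 1.38, 1.39 and 1.40 on the fed arrays. The groups were separate, with a difference of -0.19 ± 0.04 (SE; limma adjusted p = 0.0156). The paralogues did not pass: Derl3 gave -0.16 (adjusted p = 0.113) and Derl1 gave 0.13 (adjusted p = 0.0602). With slide as a block Derl1 passed as higher (adjusted p = 0.0317). The differences among the 3 derlins were not tested. Sel1l, the adaptor of the ubiquitin ligase Hrd1, gave -0.12 with separate groups (adjusted p = 0.0906). The ligase itself, Syvn1, gave -0.00 ± 0.05 (SE; adjusted p = 0.988). Edem1, a mannosidase-like factor that marks glycoproteins for removal, gave -0.09 (adjusted p = 0.315). Herpud1, a ligase cofactor known as a strongly stress-inducible gene, gave 1.60, 1.66, 1.82 and 1.63 in fasted brain, against 1.60, 1.63, 1.73 and 1.70 in fed brain. Its groups overlapped fully (0.01, 95% confidence interval -0.12 to 0.14; adjusted p = 0.909). The Sec61 subunits Sec61a1 (-0.08, adjusted p = 0.294) and Sec61b (-0.01, adjusted p = 0.833) did not pass.

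Of the sensors and their effectors, Xbp1 was lower. Its probe (chr11:5425816-5425875) gave 3.55, 3.53, 3.64 and 3.45 on the fasted arrays, against 3.85, 3.70, 3.90 and 3.75 on the fed arrays. The groups were separate, and fasted brain was 1.20-fold lower (1.09 to 1.31; limma adjusted p = 0.0215). On leaving out fasted array 1, 2 or 4 or fed array 1 the adjusted p was 0.0523 to 0.0563. The spliced and unspliced forms of the mRNA were not told apart. Ern1, which encodes the splicing enzyme IRE1, was dimmer, with -3.29, -3.14, -3.19 and -3.17 in fasted brain, against -3.15, -2.71, -2.94 and -2.94 in fed brain. The difference was of the size of that of Xbp1, -0.26 ± 0.09 (SE), but with a wider spread it did not pass (adjusted p = 0.0754), except with the replicate number as a block (adjusted p = 0.0420). Atf6 gave 0.03 ± 0.06 (SE; adjusted p = 0.788).

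The arrays lay on 2 slides, each with 2 fasted and 2 fed arrays, so each difference could be taken within a slide. All 12 genes that passed were lower in fasted brain within both slides. Since each had all 4 fasted values below all 4 fed values, this could not come out otherwise and is no separate check. The median log2 difference over the 39 genes was -0.12 on slide 1 and -0.08 on slide 2, and 31 and 26 genes were negative. Over all 19995 genes tested the medians were -0.02 and -0.003, and 11132 and 10160 genes were negative. Hyou1 stood apart, with -0.17 on slide 1 and 0.44 on slide 2. Among the 12 genes, fasted array 1 was the lowest of the 8 arrays for 6, fasted array 4 for 4 and fasted array 2 for 2. Fed array 3 was the highest of the 8 for 8 of the 12, and fasted array 3 was the highest fasted array for 9. On each slide positions 1 and 3 held fasted brain and positions 2 and 4 held fed brain, so fasting and position cannot be told apart. The 75th percentile of intensity was 1651 to 1944 over the 8 arrays, 24567 to 27220 probes were well above background, and 0 spots were saturated.

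**Figure D3:**
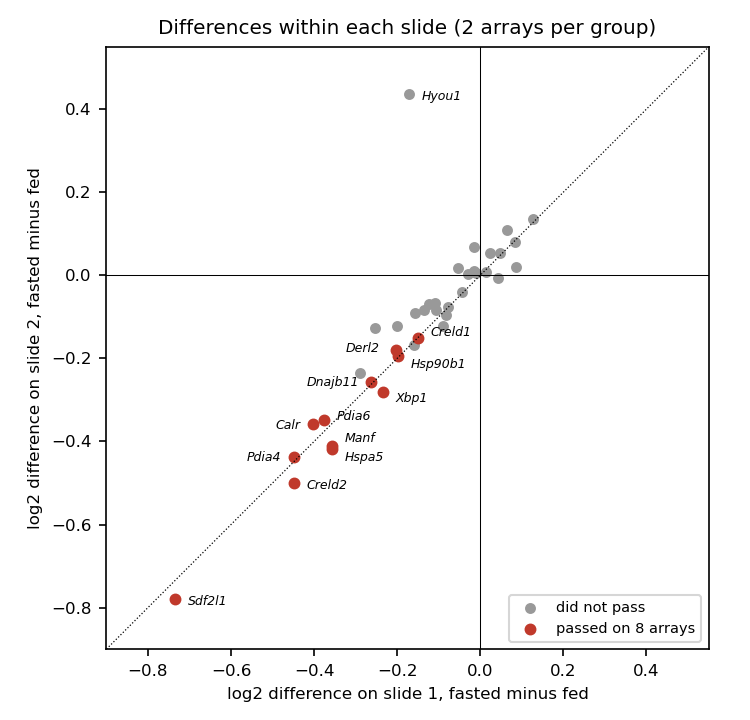
Log2 difference, fasted minus fed, within slide 2 (y axis) against that within slide 1 (x axis), with 2 arrays per group on each slide and a dotted line where both are equal. The 12 genes that passed on all 8 arrays (red) lie at the lower left, below 0 on both axes, as their separate groups require. Hyou1, at -0.17 and 0.44, lies farthest from the line.

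For 8 genes more than 1 probe was kept, and the probes did not always give the same difference. Both probes of Pdia6 were lower in fasted brain, the second by -0.20 (adjusted p = 0.0384). Derl2 had 3 kept probes. The one 401 bases towards the 5′ end of the gene was also lower, by -0.31 (adjusted p = 0.00246), while the one 2409 bases towards the 3′ end gave -0.03 (adjusted p = 0.648). The second probe of Dnajb9, 959 bases towards the 5′ end, was higher in fasted brain by 0.57 (adjusted p = 0.0367). That probe was dim, and was well above background on 4 fasted arrays and 2 fed arrays. For Dnajc10 a probe 36456 bases towards the 5′ end was higher in fasted brain by 0.27 with separate groups (adjusted p = 0.00736). Uggt1 gave -0.16 and 0.11, and Derl1 gave 0.13 and -0.06, with none of these passing. Erp29 gave -0.02 and -0.10, and Sec61b -0.01, -0.11 and 0.07, where the array design places the last probe on chromosome 15 and the others on chromosome 4. Which transcript each probe reads was not analysed here.

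**Figure D4:**
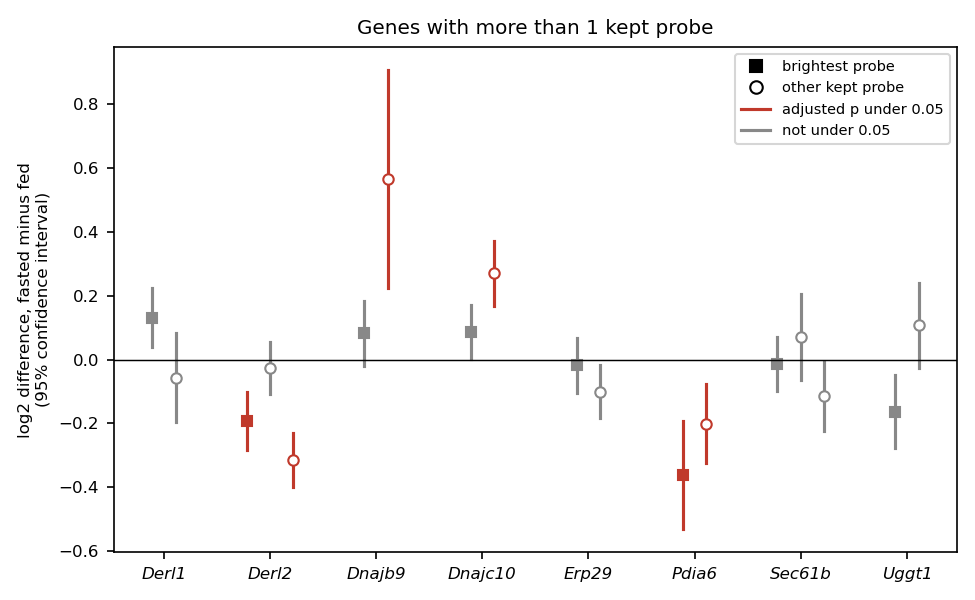
Log2 difference, fasted minus fed (y axis, with 95% confidence intervals), of every kept probe of the 8 genes with more than 1 (x axis). Filled squares are the brightest probe and open circles the others, red marks an adjusted p under 0.05, and the second probe of Dnajb9 lies at 0.57.

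Set against the promoter fragments above, 5 of the 10 genes with an exact ERSE were lower and 0 were higher, with a median log2 difference of -0.18 and a range from -0.47 for Creld2 to 0.05 for Canx. Of the 22 measured genes with a window and no exact ERSE, 6 were lower and 0 higher, with a median of -0.10. Over all 12508 tested genes with a window the median was -0.01, with 1129 lower and 1193 higher. The difference between genes with and without the element was not tested. Sdf2l1 and Pdia4, which had no exact match in the window, were among the 3 genes that differed most. The other motifs were rarer among these genes. ERSE-II, ATTGGNCCACG, was found for Dnajb11 and Herpud1, 6.06% of the 33 genes against 0.0444% of all genes, and Dnajb11 was lower while Herpud1 was not. The core TGACGTG was found for Hspa5, Txndc5 and Fkbp11, 9.09% against 2.22%. No match overlapped another.

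**Figure D5:**
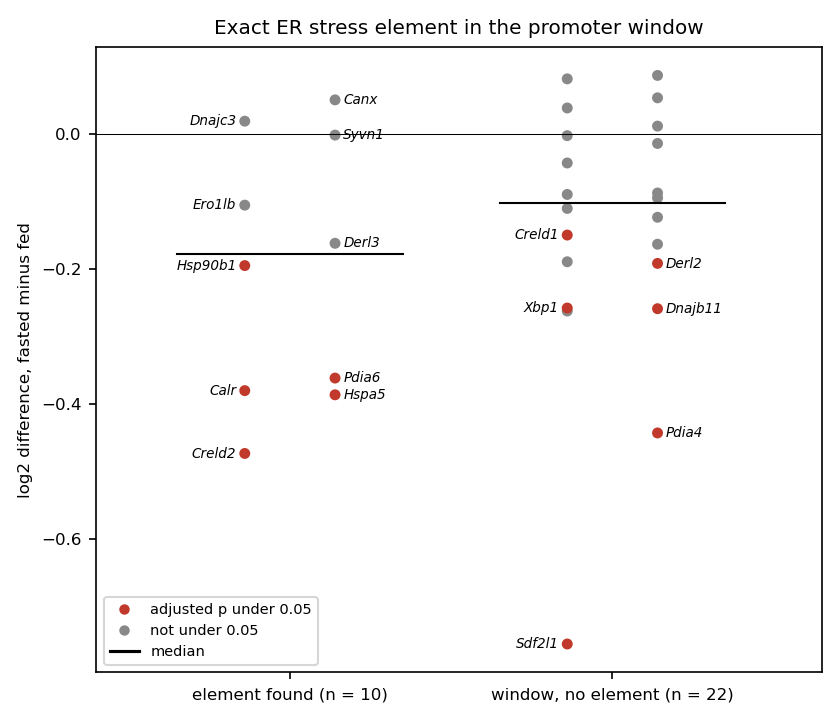
Log2 difference, fasted minus fed (y axis), of the 10 measured genes with an exact ER stress element in the promoter window (left) and of the 22 with a window and none (right), with horizontal bars at the medians of -0.18 and -0.10. Red points have an adjusted p under 0.05, and both sets hold genes near 0 as well as genes that were lower.

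Other genes of the same pathways were taken from lists, also chosen with earlier results known, and counted in the same way. Over all genes tested 8.70% were lower and 8.49% higher, which is the reference for every list below. The counts of 1 or 2 genes in the lists of 15 to 20 genes lie near these shares. Of 14 genes of the PERK and ATF4 arm, 4 were higher and 2 lower (median 0.05). Chac1, a glutathione-degrading enzyme and ATF4 target, gave 0.36 ± 0.05 (SE; limma adjusted p = 0.00327), and Ppp1r15a, which reverses the PERK signal, gave 0.30 (adjusted p = 0.00821). Sesn2, a stress-induced regulator of mTORC1, gave 0.24 (adjusted p = 0.0105), while Ddit3, encoding CHOP, gave -0.25 (adjusted p = 0.0104). The other lower gene, Atf3, gave -0.82 (adjusted p = 0.0249) at a low signal, with means of -4.02 in fasted and -3.20 in fed brain. Among 14 other sensors and transducers 4 were higher and 3 lower (0.07). Wfs1, the ER membrane protein wolframin, gave 0.34. Mbtps2 and Mbtps1, the proteases that cut ATF6, gave 0.27 and 0.17, and Eif2ak3 gave 0.13 (adjusted p = 0.0319). Eif2ak3 stands in both lists and is counted as higher in both. The 3 lower genes among these sensors and transducers had larger p-values and are not named.

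Of 22 other degradation genes 7 were higher and 1 lower (median 0.07), with 0.23 for Faf2 and 0.19 for Ufd1l, both partners of the extracting ATPase p97, 0.27 for the ER J-protein Dnajb12 and -0.18 for Aup1. Of 18 genes of N-glycosylation and glycan trimming 2 were higher and 1 lower (-0.02). The mannosyltransferase Alg2 gave 0.23, the glucosyltransferase Alg5 0.20 and the oligosaccharyltransferase subunit Ostc -0.14. Of 19 other translocation genes 2 were lower and 0 higher (0.01): Srprb, a subunit of the signal recognition particle receptor, with -0.22, and the signal peptidase subunit Sec11c with -0.13. Of 20 genes listed under retrieval and export 1 was higher, Cdk5rap3 with 0.13, and 0 were lower (0.00). Cdk5rap3 is not itself a cargo receptor or coat gene of these steps.

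Of 15 other genes listed with the disulfide isomerase family, which include peroxidases and oxidases, 2 were lower and 1 was higher (median -0.04). The lower ones were Gpx8 with -0.22 and Pdia2 with -0.52 (limma adjusted p = 0.0194), and Qsox1 was higher with 0.16. Pdia2 was dim, with means of -4.46 in fasted and -3.94 in fed brain, so low signal limits its value. Of 14 genes of calcium handling 3 were lower and 1 higher (0.01): Rcn1 and Rcn3, calcium-binding reticulocalbins, gave -0.27 and -0.18, the calcium pump Atp2a3 gave -0.26 and the calcium sensor Stim1 gave 0.20.

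Bulk brain RNA mixes cell types, and fewer cells of a type and less RNA per cell cannot be told apart. Marker levels were summed as multiples of the 75th percentile of the array. Single markers were counted as above, where 8.70% of all genes tested were lower and 8.49% higher. The sum of 6 microglial markers was 17.6 to 20.1 in fasted brain, against 20.9 to 22.7 in fed brain, with 4 markers lower and 0 higher. The sum of 6 oligodendrocyte markers was 85.7 to 94.6 in fasted brain, against 95.7 to 103 in fed brain, with 3 lower and 0 higher. For 5 ependymal markers it was 2.99 to 3.15 in fasted brain, against 3.30 to 3.46 in fed brain, with 2 lower. These 3 sums, like the 12 genes above, were lower in every fasted array than in any fed array, and their part in the result was not tested. For 6 astrocyte markers the sum was higher, 30.5 to 31.1 in fasted brain, against 27.3 to 29.2 in fed brain, although 1 marker passed in each direction. For 7 neuronal markers, of which 0 passed, it was 165 to 173 in fasted brain, against 158 to 166 in fed brain, so the labelled tissue showed its defining genes.

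For 4 oligodendrocyte precursor markers the sums were 9.96 to 10.92 in fasted brain, against 10.88 to 11.57 in fed brain. Endothelial sums over 6 markers were 10.05 to 11.12 in fasted brain, against 10.70 to 11.32 in fed brain. Choroid plexus sums over 7 markers were 37.4 to 41.2 in fasted brain, against 37.9 to 43.0 in fed brain. These ranges overlapped, but single markers passed. Of the precursor markers 1 was higher and 0 lower, and of the endothelial ones 1 was higher and 2 lower. Of the choroid plexus markers 1 was higher and 1 lower, and that sum rests mostly on the brightest, Ttr. The ranges of the next sets overlapped too. Sums over 6 meningeal and fibroblast markers were 8.40 to 9.08 in fasted brain, against 8.16 to 9.12 in fed brain, with 1 marker higher and 1 lower. For 4 blood markers, of which 0 passed, they were 37.7 to 64.4 in fasted brain, against 38.1 to 65.2 in fed brain. Plasma cells, which are rich in these chaperones, left little signal: the 2 markers kept, Igj and Mzb1, summed to 0.0659 to 0.0909 in fasted brain, against 0.0917 to 0.117 in fed brain. These ranges lay next to each other without overlap, 0 of the 2 markers passed, and Sdc1 and Tnfrsf17 did not pass the filter on dim signals. Of 5 pituitary markers only Lhb passed that filter, and Gh, Prl, Tshb and Cga did not.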

How the data were processed

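Groups and replicate numbers were taken from the sample titles. The deposited scanner files give an intensity per spot, made per the file headers with Feature Extraction 11.0.1.1 (10.10.1.1 per the submitters' processing notes), with detrending on and a background method given as code 7. Log2 processed signals minus the 75th percentile of each array were averaged over the spots of a probe, without control and outlier-flagged spots (128 to 217 per array). Probes well above background (at least 0.5 of their spots) on at least 4 of 8 arrays were kept. The test of fasted against fed was limma 3.58.1 (lmFit and eBayes, two-sided, without a block; R 4.3.3). P-values of all kept probes were adjusted together by Benjamini-Hochberg, and 0.05 was the threshold. The brightest kept probe, by its mean over the 8 arrays, stood for a gene. The procedure was tested on simulated data with independent noise on each array. That setting leaves out the correlation between same-numbered arrays given below, so it does not test its effect. Probes have the mm9 coordinates of the array design. Which exon or untranslated region they lie in was not analysed here. Replicates are separate samples by the labels, and the number of arrays limits the precision. The table deposited for the series, with a linear ratio for every spot, served only as an alternative.

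Members, roles, pathway lists and markers were chosen with earlier results of these data known. Of other pathway lists at most 4 genes with the smallest p are named, and Atf3 in addition. Deviations of same-numbered fasted and fed arrays correlated at 0.179, 0.284, 0.291 and 0.180, above 0.1 in every pair. Same-numbered arrays also have neighbouring positions on 1 slide. A difference between slides passed for 220 probes and for 0 of these genes. Promoter motifs were matched exactly on both strands with Python 3.11.15.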

Additional observations from a re-analysis of the deposited data

Results flagged for a closer look

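Single arrays were compared with the other 3 of their group for the 39 measured genes, 78 groups of 4 in all, and in 5 of them the extreme array lay farther out than Dixon's criterion allows. Chance alone marks about 1 group in 20. Values are log2 relative to the 75th percentile of the array. Creld1 gave 1.016 on fasted array 3, where the other fasted arrays averaged 0.902. That array brings the fasted group nearer to the fed one, and without it the difference was -0.18 with a limma adjusted p of 0.0174. Pdia3 gave 1.803 on fasted array 1, where the others averaged 1.744, and Txndc5 gave -0.918 on fasted array 4, where the others averaged -0.741. Dnajb9 gave 1.201 on fed array 3, where the others averaged 1.069, and Sec61b gave 2.940 on fed array 1, where the others averaged 2.883. Of these genes only Creld1 passed the test between the groups.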

How the results depend on the processing

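Of the 12 genes lower in fasted brain, 9 passed in all 20 alternatives that allow a test. The exceptions were Xbp1 (14 of 20; adjusted p 0.00649 to 0.0612), Hsp90b1 (15 of 20; 0.00646 to 0.0832) and Creld1 (11 of 20; 0.0174 to 0.135), each lost with median scaling and with no filter on dim probes, and the last 2 also with normexp background correction; the cause was not tested. The count of lower genes was 9 with median scaling, 9 without the filter, 11 with normexp, 13 with quantile normalization, 14 with slide as a block and 14 with the replicate block. It was 9 to 13 on leaving out 1 array. The count of higher genes, 0 as reported, was 1 with quantile normalization, with slide as a block and with trended robust eBayes, each time Derl1, and 0 to 1 on leaving out 1 array (Derl1 without fasted array 2, adjusted p 0.0484). It was 2 with the mean of the kept probes of a gene, where Dnajb9 (0.32, adjusted p 0.0405) and Dnajc10 (0.18, adjusted p 0.0189) passed. Uggt1 (replicate block adjusted p 0.0315) and Ern1 (0.0420) passed as lower with the replicate block, which changed no other call. No called difference changed sign. The alternative scalings moved the median of all genes to -0.02 to 0.01. Hyou1 was too dim for the filter on all 8 arrays, and low signal over background limits its value.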

Other observations

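Of 27 cytosolic and mitochondrial chaperones 11 were lower in fasted brain and 0 higher, and the rest did not pass, where 8.70% of all genes tested were lower. The median log2 difference was -0.12, with 22 of the 27 negative, against 10873 of all 19995 genes tested. This list too was chosen with earlier results of these data known. The 4 with the smallest p were the Hsp90 co-chaperone Chordc1 (-0.51 ± 0.05, SE; limma adjusted p = 0.00112), the Hsp70 and Hsp90 adaptor Stip1 (-0.28), the J-protein Dnaja1 (-0.27) and the Hsp110 gene Hsph1 (-0.32). Among 11 other prolyl isomerases and genes of collagen folding 3 were lower and 0 higher (-0.10). Serpinh1, the collagen chaperone HSP47, gave -0.56 (adjusted p = 0.00611). The prolyl hydroxylase subunit P4ha1 gave -0.53 (adjusted p = 0.00426) and the lysyl hydroxylase Plod3 -0.13. Whether these sets differ from the ER chaperones was not tested.

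The exact ERSE of Creld2 also lies in the promoter window of Alg12, a mannosyltransferase gene that starts on the opposite strand, since the matched 19 bases (chr15:88819520-88819538, GRCm38.p6) sit between the gene starts. Creld2 gave -0.47 ± 0.04 (SE; limma adjusted p = 0.00104) and Alg12 gave -0.01 ± 0.13 (SE; adjusted p = 0.965), with a wide interval. Of 9 tested genes outside the ER list with an exact ERSE in the window, 0 were lower and 1 was higher, Acacb, which encodes an acetyl-CoA carboxylase (0.46, adjusted p = 0.00605), and their median was -0.01. Acacb and Alg12 were named after their values were seen.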
